A study of Mus musculus with 12 samples.

Results

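The core genes of iron and heme handling in the liver were chosen by symbol, and all 10 of them were found, once each, among the 45777 genes of the table. They are *Hmox1*, which breaks down heme, *Blvrb*, which reduces biliverdin and flavins, and *Alas1*, which starts heme synthesis. Further members are *Fth1* and *Ftl1*, the ferritin subunits, and *Tfrc* and *Trf*, the transferrin receptor and transferrin. The last are *Slc40a1*, the iron exporter ferroportin, and *Hamp* and *Hamp2*, the hepcidin genes. All 10 passed the filter on low counts in every comparison. The measurement was poly-A RNA sequencing of whole liver from 12 C57BL/6 mice, aged 10 to 12 weeks by the labels and male by the study's methods. The 4 groups of 3 livers crossed a genotype label with a treatment: wild type (WT) with vehicle, WT with acetaminophen (APAP), *Gna12* knockout (KO) with vehicle and *Gna12* KO with APAP. APAP was injected into the abdomen at 300 mg/kg after an overnight fast, by the study's methods, and livers were taken at 6 h. *Gna12* encodes a G protein alpha subunit, the labels give the KO as Gα12-/- with no cell type restriction, and the WT mice were littermates matched for age. No group carried any other allele or agent by the labels.

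Iron is toxic when free, so liver cells hold it in ferritin, take it up from plasma transferrin and release it through ferroportin. Hepcidin is a peptide hormone that hepatocytes secrete in response to BMP signals from endothelial cells and to inflammation, and it removes ferroportin from the cell surface. Heme is built in a chain of enzyme steps that starts with ALAS1 in the liver, and heme oxygenase 1, a classic stress-induced enzyme, opens the heme ring to free its iron, carbon monoxide and biliverdin. Ferritin, ferroportin and transferrin receptor mRNAs carry a hairpin, the iron-responsive element, through which iron regulatory proteins set translation or mRNA stability, so their mRNA levels alone do not give their protein levels.

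Levels are given as CPM, the counts of a gene scaled to a common library size after TMM scaling for library composition. Comparisons between genes use TPM, which are also scaled to transcript length. A library held 49737950 to 69566079 counts, so each of the 10 genes was read at least 39 times in each liver. *Gna12* was read at 23.3 to 66.7 CPM in the 6 WT livers and at 43.3 to 67.2 CPM in the 6 livers labelled KO, so the label was not visible in the count of its target. The deleted part of the gene is not given in the sources used here, and a count over the whole gene does not check the label. The paper reports PCR of tail DNA and liver qRT-PCR for *Gna12* in WT littermates and KO mice. Whether the sequenced livers were among them is not stated. A pair of libraries stood apart. The liver WT vehicle 2 read the acute-phase gene *Fgb* at 12229 CPM, against 2178 to 2591 CPM in the other 5 vehicle livers. The liver WT APAP 1 read the alpha-globin gene *Hba-a1* at 4653 CPM, against 44.4 to 171 CPM elsewhere. The 8 hepatocyte markers summed to 67537 to 139791 CPM, with none at 0 in any liver. The 8 Kupffer cell markers summed to 78.3 to 232 CPM, the 7 sinusoidal endothelial markers to 150 to 255 CPM and the 7 neutrophil markers to 1.10 to 128 CPM. The neutrophil sum of 128 CPM was that of WT APAP 1, and the next highest was 22.4 CPM in WT APAP 3. Of the 6 monocyte markers, *Fn1*, which hepatocytes also express as plasma fibronectin, was read at 852 to 2793 CPM and each of the other 5 at no more than 15.0 CPM. In these bulk samples, fewer cells of a type and less RNA per cell cannot be told apart.

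The iron-responsive elements are shown because they are the sequence feature that the ferritin, ferroportin and transferrin receptor transcripts share and the other members lack. They were searched for in the reference transcripts of GENCODE vM21 (GRCm38, the build the files call mm10) as a C, any 5 bases, CAGTG and then A, C or T, with the 5 bases on each side of that loop able to pair. The sequences are written as DNA on the transcript strand, 5′ to 3′, with the loop in capitals.
Fth1 (chr19:9982732-9982761, plus strand, exon 1, 5′ UTR): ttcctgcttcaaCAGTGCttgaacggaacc
Ftl1 (chr7:45459778-45459807, minus strand, exon 1, 5′ UTR): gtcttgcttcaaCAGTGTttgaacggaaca
Slc40a1 (chr1:45925464-45925493, minus strand, exon 1, 5′ UTR): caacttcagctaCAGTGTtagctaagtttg
Tfrc, the first of its elements (chr16:32631219-32631248, plus strand, exon 19, 3′ UTR): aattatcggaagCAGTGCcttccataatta
Tfrc, the last of its elements (chr16:32631710-32631739, plus strand, exon 19, 3′ UTR): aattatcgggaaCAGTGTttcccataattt
The transcript of *Tfrc* held 4 such elements and those of *Fth1*, *Ftl1* and *Slc40a1* held 1 each. No protein-coding transcript of *Hmox1*, *Blvrb*, *Alas1*, *Trf*, *Hamp* or *Hamp2* held one. Of 21901 protein-coding genes, 1.01% had a transcript with at least 1 match, and a match is a description of the letters only.

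**Figure D1:**
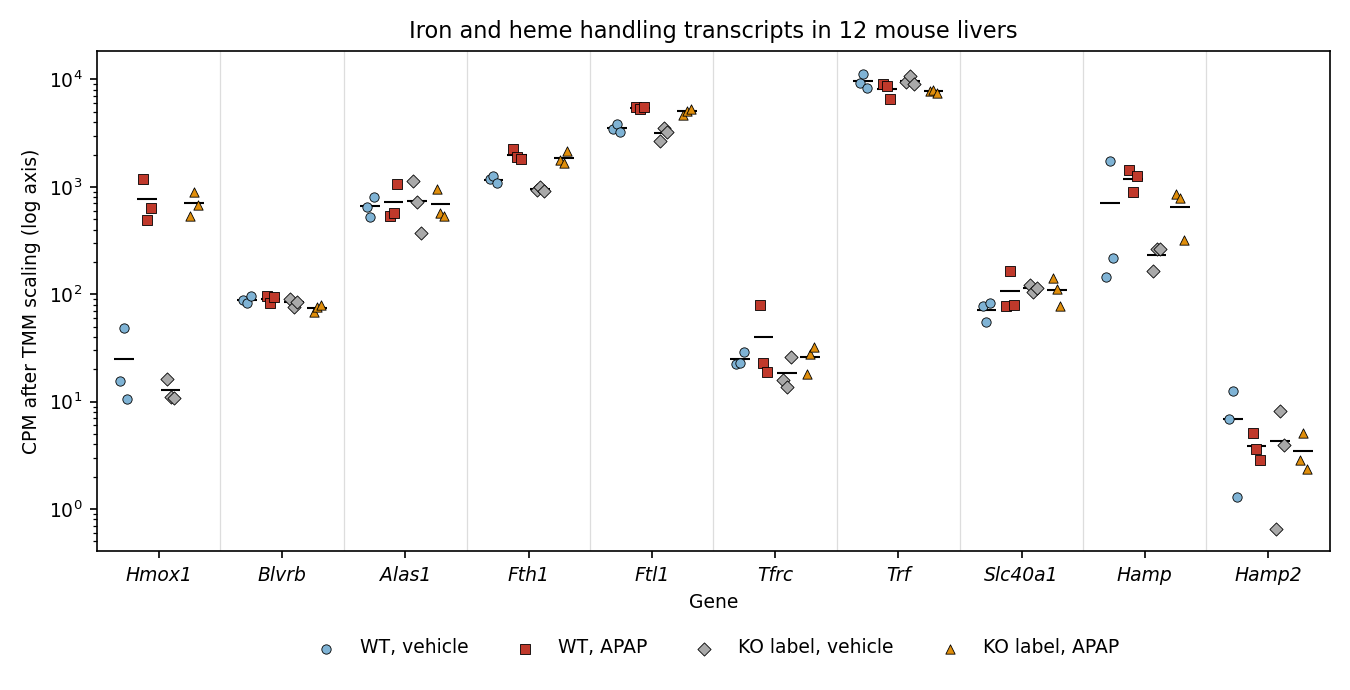
The level of each of the 10 genes is plotted in each liver as CPM after TMM scaling on a log axis, with 1 symbol per liver and a bar at the mean of each group of 3. *Hmox1* and both ferritins lie higher in all 6 APAP livers than in all 6 vehicle livers, while *Hamp* is high in 1 WT vehicle liver.

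*Hmox1* had the widest change of the 10 genes. This gene (chr8:75093618-75100593) encodes heme oxygenase 1. With vehicle it was read at 15.7, 48.3 and 10.6 CPM in WT livers and at 16.3, 11.1 and 10.7 CPM in livers labelled KO. After APAP it was read at 1184, 490 and 635 CPM in WT livers and at 537, 888 and 680 CPM in livers labelled KO. All 6 APAP livers exceeded all 6 vehicle livers, and WT vehicle 2 was the highest of the vehicle livers. The log2 fold change was 4.98 (SE 0.70, 95% interval 3.36 to 6.59) in WT livers, with an adjusted p of 0.0174 by edgeR's quasi-likelihood test. Under the KO label it was 5.80 (SE 0.28, adjusted p = 3.03e-05), and over all 12 livers it was 5.38 (SE 0.43, adjusted p = 4.82e-06), a 41.5-fold rise. The WT call held in 3 of the 6 fits that left out 1 liver, where the adjusted p ran from 0.0154 to 0.0951, and was lost without WT vehicle 1, WT vehicle 3 or WT APAP 3. The call under the KO label held in all 6 such fits. By TPM, WT APAP 1 read *Hmox1* at 761, below 2 of the 3 KO APAP livers (674, 1039 and 809), so its lead in CPM did not carry over to the per-length scale.

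The other member placed with heme breakdown, biliverdin reductase B, did not follow *Hmox1*. *Blvrb* (chr7:27447978-27465981) encodes an enzyme that reduces biliverdin and flavins. Its 12 values lay between 68.4 and 96.8 CPM, with means of 89.2 ± 6.08 (SD, n = 3) in WT vehicle, 91.1 ± 7.86 in WT APAP, 83.8 ± 6.95 in KO vehicle and 74.7 ± 5.63 in KO APAP. The log2 fold change was 0.05 (95% interval -0.33 to 0.43) in WT livers and -0.16 (-0.44 to 0.12) under the KO label, with adjusted p-values of 0.912 and 0.389. Both intervals lie far from the change of *Hmox1*.

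*Alas1* (chr9:106233455-106247954) encodes the rate-limiting enzyme of heme synthesis in the liver and showed no change beyond a wide spread. The vehicle livers ranged from 370 to 1126 CPM and the APAP livers from 530 to 1065 CPM. Within KO vehicle alone the 3 livers read 1126, 719 and 370 CPM, which included the highest and the lowest value of all 12 livers. Over all 12 livers its log2 fold change was 0.01 (SE 0.27, 95% interval -0.57 to 0.60, adjusted p = 0.978). Its sign turned with the liver left out, from -0.17 to 0.22.

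Both ferritin subunits were higher in every APAP liver than in every vehicle liver. *Fth1* (chr19:9980600-9985111) encodes the heavy chain, which oxidizes iron for storage. It was read at 1176, 1254 and 1075 CPM in WT vehicle and at 2229, 1913 and 1815 CPM in WT APAP. In livers labelled KO it was read at 942, 1008 and 924 CPM with vehicle and at 1797, 1655 and 2157 CPM with APAP. The groups did not overlap under either genotype label.

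*Ftl1* (chr7:45457944-45459886) encodes the light chain, which helps the iron core form. It was read at 3461, 3809 and 3261 CPM in WT vehicle and at 5590, 5292 and 5538 CPM in WT APAP. Livers labelled KO read it at 2686, 3516 and 3252 CPM with vehicle and at 4674, 5105 and 5336 CPM with APAP. Again the lowest APAP liver exceeded the highest vehicle liver.

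Over all 12 livers, *Fth1* rose 1.83-fold (log2 fold change 0.87, SE 0.11, adjusted p = 0.000213) and *Ftl1* rose 1.58-fold (0.66, SE 0.11, adjusted p = 0.00104). Both calls held in each of the 12 fits that left out 1 liver. In WT livers alone neither passed the test, with log2 fold changes of 0.78 (SE 0.21, adjusted p = 0.113) for *Fth1* and 0.66 (SE 0.22, adjusted p = 0.168) for *Ftl1*. The DESeq2 Wald test called both in WT livers, with adjusted p-values of 0.00229 and 0.00393, as did the fit that shared 1 spread over all 12 livers. Both rose under the KO label, by 0.97 (SE 0.16, adjusted p = 0.00476) and 0.69 (SE 0.17, adjusted p = 0.0251). The *Ftl1* call there held in 3 of 6 fits without 1 liver and was lost without KO vehicle 2, KO APAP 1 or KO APAP 3, at adjusted p-values up to 0.0797. The interaction of genotype label and treatment was -0.19 (95% interval -0.69 to 0.30) for *Fth1* and -0.03 (-0.53 to 0.47) for *Ftl1*.

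The light chain outnumbered the heavy chain in each liver. By TPM, the ratio of *Ftl1* to *Fth1* was 2.92 ± 0.05 (SD, n = 3) in WT vehicle, 2.70 ± 0.26 in WT APAP, 3.19 ± 0.37 in KO vehicle and 2.64 ± 0.31 in KO APAP. The range over the 12 livers was 2.40 to 3.42, and APAP livers overlapped vehicle livers under both labels. Mouse ferritin genes have processed copies that can take reads from the parent. The rows *Ftl1-ps1*, *Ftl1-ps2* and *Ftl2-ps* held 4.67% to 5.52% of all *Ftl* reads, and adding them to *Ftl1* left its log2 fold change at 0.65 in WT livers and 0.69 under the KO label. Since the counting could split such reads, the *Ftl1* level itself is uncertain by that share.

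**Figure D2:**
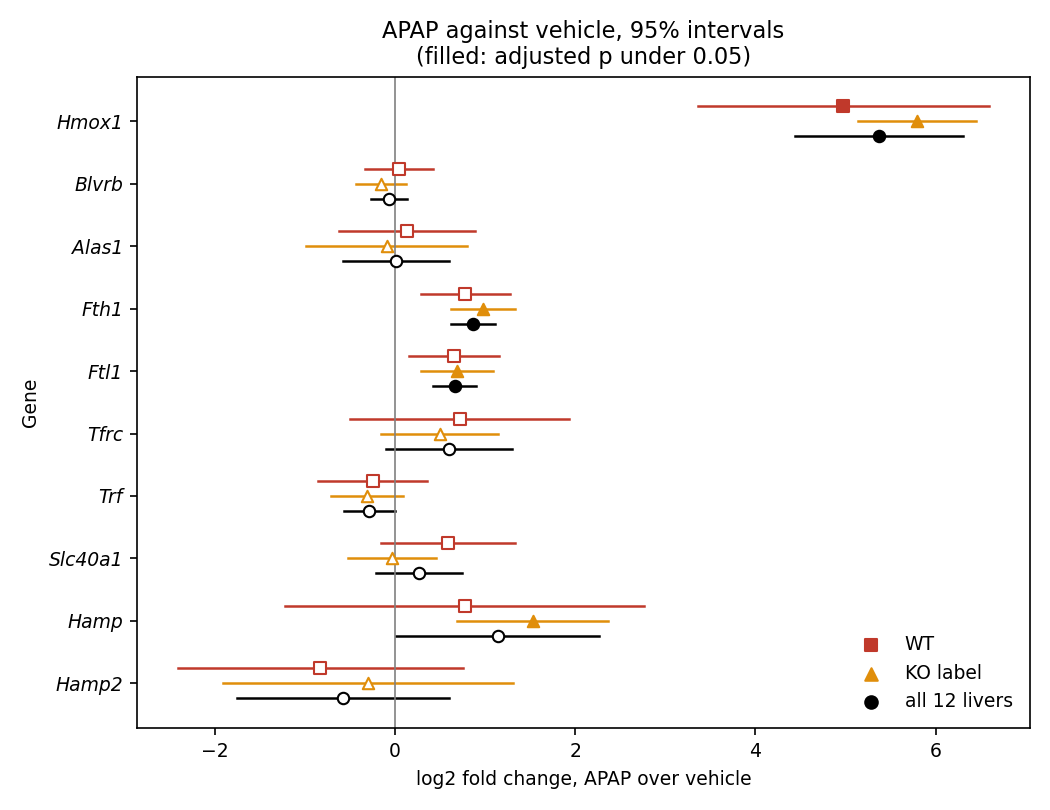
The log2 fold change of APAP over vehicle is plotted for each of the 10 genes, with its 95% interval, in WT livers (squares), in livers labelled KO (triangles) and over all 12 livers with the label as a term (circles). Filled symbols have an adjusted p under 0.05, which is *Hmox1* in all 3 fits, *Fth1* and *Ftl1* in 2 of them and *Hamp* under the KO label.

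In WT livers 1 of the 10 genes, *Hmox1*, rose with APAP and 0 fell, where edgeR called 1.62% of all 15693 genes tested higher and 0.427% lower. Of the 10 genes 3, *Hmox1*, *Fth1* and *Ftl1*, were higher in each WT APAP liver than in each WT vehicle liver, as were 13.0% of all genes. In livers labelled KO 4 of the 10, *Hmox1*, *Fth1*, *Ftl1* and *Hamp*, rose and 0 fell, against 13.0% called higher and 9.60% called lower among 15665 genes. The same 4 were higher without overlap of the groups, against 21.6% of all genes. *Trf* alone of the 10 was lower without overlap, as were 3332 of the 15665 genes. Over all 12 livers 3 of 10 rose and 0 fell, against 14.0% higher and 11.7% lower of 16112 genes, and those 3 were the members without overlap, against 7.11% of all genes. The median log2 fold change of the 10 over all livers was 0.43, beside 0.01 for all genes tested. The pooled comparison contains the livers of both others, so the 3 counts are not separate evidence.

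The hepcidin genes are neighbouring copies on chromosome 7, and their promoters are shown because *Hamp* and *Hamp2* differed widely in level while their upstream sequences are close copies. RefSeq promoter windows (GRCm38.p6, from 250 bases before the start site to 50 after it) were found for 7 of the 10 members. Aligned without gaps, the windows of *Hamp* and *Hamp2* were identical at 276 of 297 bases, or 92.9%. The stretches below run 5′ to 3′ on the minus strand, lined up with each other. Capitals mark GGCGCC (the core of the BMP response element), TTCNNNGAA (the form bound by STAT factors) and TGACTCA (the AP-1 site), each searched on both strands.
Hamp (chr7:30944080-30944159, 130 to 51 bases before the start site): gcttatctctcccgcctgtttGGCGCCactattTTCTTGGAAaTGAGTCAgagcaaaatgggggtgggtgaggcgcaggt
Hamp2 (chr7:30924229-30924308, 127 to 48 bases before the start site): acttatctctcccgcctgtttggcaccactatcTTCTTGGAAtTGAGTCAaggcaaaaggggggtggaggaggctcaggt
In *Hamp2* the place of GGCGCC carried G4A, counted from the first base of the motif with the base of *Hamp* first. Among 32851 promoter windows of this length, 11.9% held GGCGCC, 8.30% held TTCNNNGAA and 5.20% held TGACTCA. These are matches of letters and show neither binding nor a cause of the levels.

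*Hamp* (chr7:30942368-30944029) encodes hepcidin, and its result turned on 1 vehicle liver. In WT vehicle it was read at 144, 1752 and 218 CPM, and in WT APAP at 1424, 889 and 1256 CPM. Livers labelled KO read it at 165, 263 and 262 CPM with vehicle and at 857, 792 and 319 CPM with APAP. WT vehicle 2, at 1752 CPM, was the highest of all 12 livers, and the other 5 vehicle livers were below all 6 APAP livers. The groups labelled KO did not overlap, and KO APAP 3 lay closest to the vehicle livers.

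*Hamp* rose under the KO label by 1.53 on the log2 scale (SE 0.37, 95% interval 0.69 to 2.37, adjusted p = 0.0207), a 2.88-fold change. This call held in 2 of the 6 fits that left out 1 liver, was lost without any 1 of the KO vehicle livers or KO APAP 1 (adjusted p up to 0.0634), and was also lost when all 12 livers shared 1 spread (adjusted p = 0.205). In WT livers the log2 fold change was 0.78 (SE 0.86, adjusted p = 0.671), and over all 12 livers it was 1.14 (SE 0.52, adjusted p = 0.129), or 1.58 by limma on TPM (adjusted p = 0.0299). Without WT vehicle 2 it was 2.73 in WT livers (SE 0.35, adjusted p = 0.0264) and 2.04 over all livers (SE 0.33, adjusted p = 0.000997). The interaction of label and treatment was -0.75 (SE 1.04, adjusted p = 0.917) with that liver and 1.203 without it.

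Acute-phase transcripts moved with *Hamp* in WT vehicle 2. *Hp*, which encodes haptoglobin, the plasma protein that binds hemoglobin, was read there at 11336 CPM, against 2586 to 2999 CPM in the other 5 vehicle livers. *Hpx*, which encodes the heme-binding hemopexin, was read at 7254 CPM against 2209 to 3228 CPM. *Lcn2*, which encodes a siderophore-binding protein of the acute-phase response, was read at 958 CPM there and at 1.95 to 13.8 CPM in the other vehicle livers. Neutrophils also express *Lcn2*, and the 7 neutrophil markers summed there to 19.7 CPM, with none at 0, against 1.199 to 2.469 CPM in the other 5 vehicle livers, with 1 to 5 at 0. The part of either in the *Hamp* result was not tested, beyond the values given above without that liver.

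The BMP pathway, which drives hepcidin transcription, was followed through 17 regulators, of which 16 were tested. Over all 12 livers 4 rose and 0 fell, where 14.0% of all genes rose and 11.7% fell. Under the KO label also 4 rose and 0 fell, where 13.0% of all genes rose and 9.60% fell. *Bmp6*, the ligand made mainly by sinusoidal endothelium, was read at 3.29 to 4.38 CPM in the 6 vehicle livers and at 5.69 to 9.40 CPM in the 6 APAP livers, without overlap. It rose over all livers by 0.89 (SE 0.14, adjusted p = 0.000585) and under the KO label by 0.77 (SE 0.18, adjusted p = 0.0207), a call lost without KO vehicle 2, KO vehicle 3 or KO APAP 3 (adjusted p up to 0.0715). *Bmp2*, the other endothelial ligand, rose over all livers by 0.49 (SE 0.12, adjusted p = 0.00869).

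*Id1* and *Smad7*, direct targets of BMP receptor signals, were read at 3.16, 4.03 and 5.22 CPM and at 5.44, 5.10 and 4.42 CPM in KO vehicle. In KO APAP they were read at 18.6, 22.3 and 19.4 CPM and at 19.0, 19.3 and 16.3 CPM. *Id1* rose by 2.29 (SE 0.20, adjusted p = 0.000391) and *Smad7* by 1.87 (SE 0.14, adjusted p = 0.000235) under the KO label. *Smad1*, a signal carrier of the pathway, rose there by 1.18 (SE 0.17, adjusted p = 0.00307), a call that the fit of all 12 livers did not make (adjusted p = 0.0528). In WT vehicle 2 *Id1* stood at 25.4 CPM, within the 22.3 to 27.3 CPM of WT APAP, and its log2 fold change in WT livers was 0.97 (SE 0.60, adjusted p = 0.441). WT APAP 1 was the exception for *Smad7*, at 4.51 CPM beside 25.5 and 28.9 CPM in the other WT APAP livers. Leaving out both livers, an alternative chosen after the data had been seen, gave log2 fold changes over the remaining 10 livers of 2.18 for *Id1* and 1.92 for *Smad7*. For each gene this was the highest of the 18 alternatives run over all livers. With 1 liver left out at a time, *Id1* ran from 1.45 to 2.13 and *Smad7* from 1.38 to 1.76. The 7 endothelial markers summed to 150 to 255 CPM in WT APAP and to 155 to 204 CPM in KO APAP, against 161 to 201.5 and 203 to 213 CPM with vehicle, and their part in the *Bmp6* result was not tested.

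**Figure D3:**
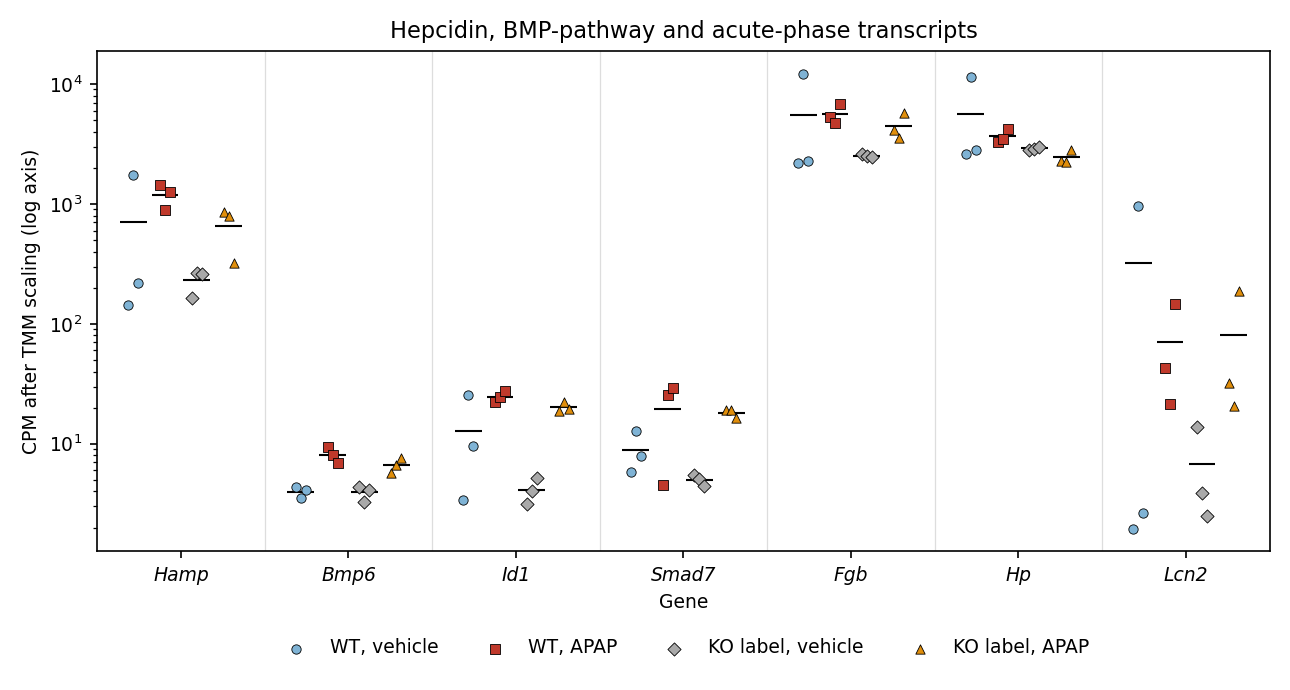
The levels of *Hamp*, the BMP ligand *Bmp6*, the BMP targets *Id1* and *Smad7*, and the acute-phase transcripts *Fgb*, *Hp* and *Lcn2* are plotted in each liver as CPM on a log axis, with a bar at each group mean. In WT vehicle, 1 liver stands far above its group in *Hamp*, *Fgb*, *Hp* and *Lcn2* and not in *Bmp6*. The BMP target *Id1* in that liver lies within the range of the WT APAP livers.

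*Hamp2* (chr7:30922372-30924181) was the minor hepcidin transcript and showed no change with treatment. Its 12 values lay between 0.655 and 12.7 CPM, from 39 to 603 counts a liver, beside 7673 to 83436 counts of *Hamp*. It took 0.226% to 4.54% of the reads of the pair. The log2 fold change was -0.83 (SE 0.68, adjusted p = 0.563) in WT livers and -0.29 (SE 0.70, adjusted p = 0.795) under the KO label, with intervals from -2.41 to 0.75 and from -1.90 to 1.31. The genes are near-identical copies, so some of the few *Hamp2* reads may belong to *Hamp*, and adding both left the *Hamp* log2 fold change at 0.77 in WT livers and 1.51 under the KO label.

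Transferrin, the plasma carrier of iron, was among the most abundant transcripts of the list and lay slightly lower with APAP, short of the threshold. *Trf* (chr9:103208876-103230286) was read at 8390 to 11366 CPM in the 6 vehicle livers and at 6564 to 9017 CPM in the 6 APAP livers. The 3 KO APAP livers, at 7892, 8063 and 7558 CPM, were below the 3 KO vehicle livers, at 9515, 10778 and 9034 CPM. Of the 15665 genes tested there, 3332 were lower without overlap. Over all livers its log2 fold change was -0.28 (SE 0.13, 95% interval -0.57 to -0.0032, adjusted p = 0.129).

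*Tfrc* (chr16:32608896-32632794) encodes transferrin receptor 1, the uptake receptor that most tissues and above all developing red cells use. It was read at 22.3, 23.1 and 29.2 CPM in WT vehicle, at 78.7, 23.0 and 18.8 CPM in WT APAP, at 15.8, 13.7 and 26.3 CPM in KO vehicle and at 17.9, 28.0 and 32.3 CPM in KO APAP. Apart from WT APAP 1 the groups overlapped. Its log2 fold change in WT livers was 0.72 (SE 0.52, adjusted p = 0.512) and -0.26 without WT APAP 1, and over all livers it was 0.60 (SE 0.32, adjusted p = 0.197). In WT APAP 1 the 8 erythroid and blood markers summed to 17085 CPM, against 252 to 750 CPM in the other 11 livers. *Alas2*, the erythroid counterpart of *Alas1*, was read there at 157 CPM, against 64.0 to 112 CPM elsewhere. The red cell membrane marker *Slc4a1* was at or below 0.332 CPM in every liver. The part of blood in the *Tfrc* value was not tested.

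**Figure D4:**
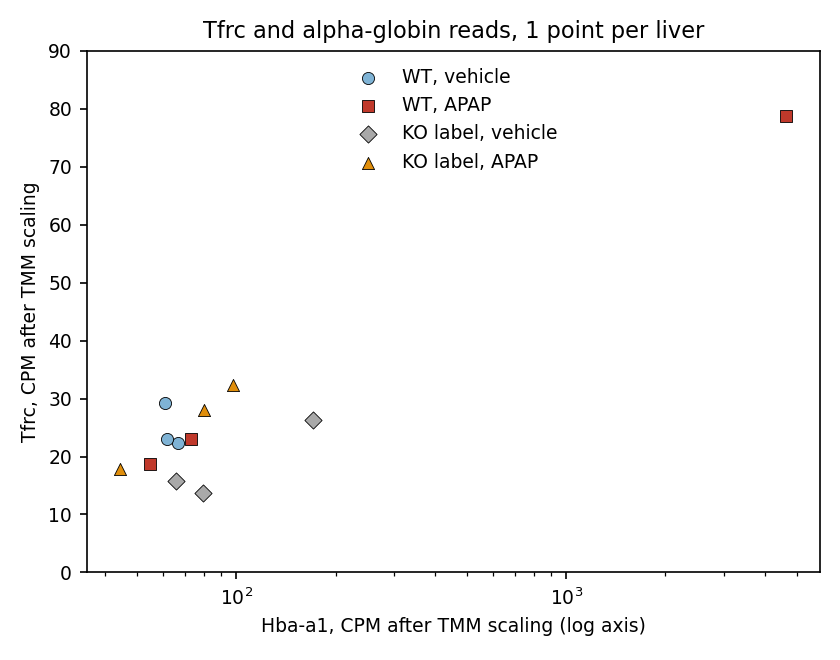
*Tfrc* in CPM is plotted against *Hba-a1* in CPM on a log axis, with 1 point per liver. WT APAP 1 lies alone at 4653 CPM of *Hba-a1* and 78.7 CPM of *Tfrc*, and the other 11 livers lie between 13.7 and 32.3 CPM of *Tfrc*.

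Ferroportin was lower in each WT vehicle liver than in each KO vehicle liver, short of the threshold. *Slc40a1* (chr1:45908070-45926532) was read at 77.1, 54.6 and 83.4 CPM in WT vehicle and at 121, 104 and 115 CPM in KO vehicle, without overlap. After APAP it was read at 78.3, 163 and 79.98 CPM in WT livers and at 142, 111 and 77.2 CPM in livers labelled KO, with overlap. The vehicle difference, WT minus KO label, was -0.66 on the log2 scale (SE 0.18, 95% interval -1.07 to -0.25), with an adjusted p of 0.512 that misses the threshold. It kept its direction in all 12 alternatives run, from -0.79 to -0.51. Ferroportin in the liver is also made by Kupffer cells, whose 8 markers summed to 95.2 to 164 CPM in WT vehicle and to 133 to 232 CPM in KO vehicle, and their part in this difference was not tested. With APAP the log2 fold change was 0.59 (SE 0.32, adjusted p = 0.383) in WT livers and -0.03 (SE 0.21, adjusted p = 0.930) under the KO label.

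No member passed the test between the genotype labels. With vehicle 0 of 10 were called, against 0.0262% of all genes (4 of 15262), and 2 of 10, *Slc40a1* and *Fth1*, had groups that did not overlap, against 14.0% of all genes. *Fth1* was the higher in WT vehicle, by 0.29 (SE 0.15, adjusted p = 0.718). After APAP 0 of 10 were called, against 0.0309% of all genes (5 of 16174), and 2 of 10, *Hamp* and *Blvrb*, had groups that did not overlap, against 8.53% of all genes. Both were higher in WT livers, *Hamp* by 0.87 (SE 0.39, adjusted p = 0.958). In the interaction 0 of 10 were called, against 0% of all genes (0 of 16509). There, 848 genes had an unadjusted p under 0.05 and the DESeq2 Wald test called 9 genes.

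Heme synthesis beyond *Alas1* was followed through the other 8 enzymes, and the later steps fell. Over all 12 livers 5 of 8 fell and 0 rose, and the 5 were *Uros*, *Urod*, *Cpox*, *Ppox* and *Fech*, where 11.7% of all genes fell and 14.0% rose. The calls of *Uros* and *Fech* held in all 12 fits without 1 liver, and those of the other 3 did not. *Fech* encodes ferrochelatase, which inserts iron into the ring. It was read at 139 to 168 CPM in the 6 vehicle livers and at 98.3 to 112 CPM in the 6 APAP livers, without overlap. It fell by 0.57 on the log2 scale (SE 0.09, adjusted p = 0.000504) over all livers and by 0.53 (SE 0.11, adjusted p = 0.0127) under the KO label, where the call was lost without KO vehicle 1 (adjusted p = 0.0513).

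*Cpox*, which makes the ring precursor coproporphyrinogen into protoporphyrinogen, fell by 0.62 (SE 0.19, adjusted p = 0.0306) over all livers. This call was lost without WT vehicle 1, WT vehicle 3, WT APAP 3, KO vehicle 1 or KO APAP 3 (adjusted p up to 0.0751) and by limma (0.0566). *Uros* fell by 0.43 (SE 0.10, adjusted p = 0.00597), *Urod* by 0.35 (SE 0.11, adjusted p = 0.0327) and *Ppox* by 0.31 (SE 0.09, adjusted p = 0.0240). The *Urod* call held only in the 3 fits without WT vehicle 1, WT vehicle 2 or WT APAP 1 of the 12 that left out 1 liver (adjusted p up to 0.0974). The *Ppox* call held only in the 5 without WT vehicle 2, WT APAP 1, WT APAP 2, KO vehicle 3 or KO APAP 2 (adjusted p up to 0.0646) and was lost with no filter (0.0591). Under the KO label 2 of 8 fell, *Fech* and *Urod*, where 9.60% of all genes fell, and the *Urod* call was lost without KO vehicle 2, KO vehicle 3, KO APAP 1 or KO APAP 3 (adjusted p up to 0.0836). In WT livers 0 of 8 passed the test. *Alad*, the step after *Alas1*, had a log2 fold change over all livers of -0.08 (adjusted p = 0.670). The median over the 8 was -0.33, beside 0.01 for all genes tested.

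**Figure D5:**
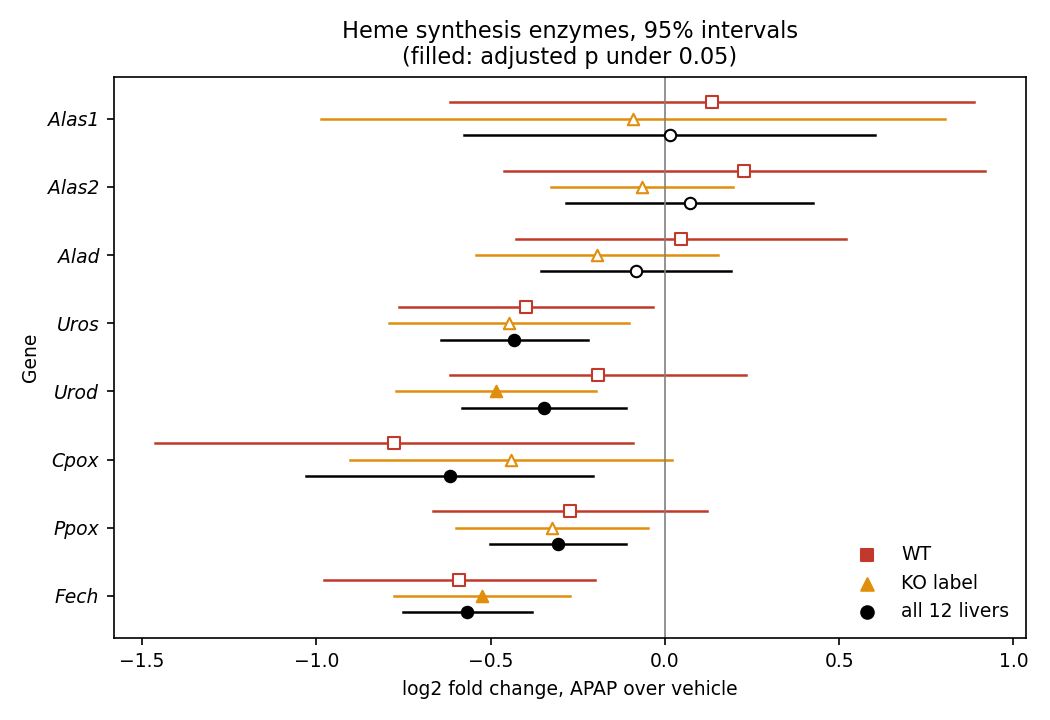
The log2 fold change of APAP over vehicle is plotted with its 95% interval for *Alas1* and 7 other heme synthesis enzymes, with earlier steps above later ones. Filled symbols have an adjusted p under 0.05. The last 5 genes are filled and below 0 over all 12 livers, and *Alas1*, *Alas2* and *Alad* have open symbols in all 3 fits.

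Among 12 genes of heme breakdown and heme transport, 2 rose and 3 fell over all livers, where 14.0% of all genes rose and 11.7% fell. *Flvcr1*, a heme exporter, was read at 1.78 to 3.04 CPM in vehicle livers and at 3.79 to 4.90 CPM in APAP livers, and rose by 0.91 (SE 0.15, adjusted p = 0.000827). *Slc48a1*, which moves heme out of lysosomes, rose by 0.69 (SE 0.15, adjusted p = 0.00400). *Slc46a1*, a folate and heme importer, fell by 0.41 (SE 0.08, adjusted p = 0.00302), *Abcb6*, a porphyrin transporter, by 0.35 (SE 0.10, adjusted p = 0.0216) and *Lrp1*, the receptor for hemopexin, by 0.61 (SE 0.21, adjusted p = 0.0484). The *Abcb6* call was lost without WT vehicle 1, WT APAP 3, KO vehicle 2 or KO APAP 1 (adjusted p up to 0.0613). The *Lrp1* call held only in the 4 fits without WT vehicle 3, WT APAP 1, WT APAP 2 or KO vehicle 3 of the 12 that left out 1 liver (adjusted p up to 0.0991), and was lost with no filter (0.0629), by limma (0.0798) and without both livers that stood apart (0.0659). *Hmox2*, the constitutive heme oxygenase, had a log2 fold change of 0.15 (SE 0.13, adjusted p = 0.417).

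The regulators that act on these transcripts changed in both directions. *Bach1*, which represses *Hmox1* until heme binds it, was read at 53.0 to 97.4 CPM in vehicle livers and at 106 to 142 CPM in APAP livers, and rose by 0.99 (SE 0.15, adjusted p = 0.000490). *Aco1*, which encodes iron regulatory protein 1, the binder of the hairpins shown above, was read at 168 to 209 CPM with vehicle and at 121 to 131 CPM with APAP. It fell by 0.62 (SE 0.08, adjusted p = 0.000270). *Ireb2*, which encodes the second such protein, had a log2 fold change of -0.35 (SE 0.16, adjusted p = 0.132). Of the 5 genes in this group, 1 rose and 1 fell over all livers and likewise under the KO label, where 14.0% and 13.0% of all genes rose and 11.7% and 9.60% fell. The *Aco1* call under the KO label was lost without KO vehicle 1, KO vehicle 2 or KO APAP 3 (adjusted p up to 0.0598).

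In iron uptake, 10 of 12 genes were tested and 2 fell over all livers, where 11.7% of all genes fell. These were *Steap3*, a ferrireductase of endosomes, by 0.72 (SE 0.17, adjusted p = 0.00664), and *Tfr2*, the iron-sensing transferrin receptor of hepatocytes, by 0.37 (SE 0.10, adjusted p = 0.0153; 0.0504 by limma). Under the KO label *Steap3* fell and *Lcn2* rose, by 3.56 (SE 0.95, adjusted p = 0.0304), while in WT livers *Lcn2* had a log2 fold change of -2.17 (SE 1.96, adjusted p = 0.601) with WT vehicle 2 at 958 CPM. The *Lcn2* call was lost without KO vehicle 2 or KO vehicle 3 (adjusted p up to 0.111), without KO APAP 3, where its log2 fold change was 1.98 (adjusted p = 0.0821), by limma (0.0536) and in the fit of all 12 livers (0.228). Of the 3 tested genes of iron storage and chaperones, *Pcbp1*, an iron chaperone for ferritin, passed the test under the KO label at 0.42 (SE 0.12, adjusted p = 0.0394) and 0 passed it over all livers. The *Pcbp1* call held in 0 of the 6 fits without 1 liver (adjusted p from 0.0519 to 0.125) and was lost with no filter (0.0658) and in the fit of all 12 livers (0.115). Among genes of mitochondrial iron and iron-sulfur clusters, the mitochondrial iron importer *Slc25a37* rose over all livers by 0.42 (SE 0.12, adjusted p = 0.0235), a call lost without WT vehicle 1, KO vehicle 2, KO vehicle 3 or KO APAP 3 (adjusted p up to 0.0570). *Nfs1*, the sulfur donor, fell by 0.35 (SE 0.09, adjusted p = 0.00891).

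Over the whole wider list of 69 genes, 65 were tested in each APAP comparison. In WT livers 0 were called by edgeR, with 11 at an unadjusted p under 0.05, where 2817 of all 15693 genes tested had one. Under the KO label 9 rose and 6 fell, and over all livers 8 rose and 13 fell, against the shares of all genes given above. Without WT vehicle 2 and WT APAP 1, 14 rose and 13 fell over the remaining livers, and in WT livers 2 rose, *Bach1* and *Smad7*. In that fit of WT livers 631 genes were called in either direction. The shares of all genes given above come from fits with every liver and do not apply to these counts.

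Transferrin and the ferritin light chain led the members by level per length, and *Tfrc* was the lowest. In WT vehicle, mean TPM was 6467 ± 867 (SD, n = 3) for *Trf*, 5666 ± 524 for *Ftl1*, 2565 ± 3206 for *Hamp*, 1943 ± 209 for *Fth1*, 385 ± 89.0 for *Alas1*, 164 ± 19.7 for *Blvrb*, 33.5 ± 8.68 for *Slc40a1*, 24.5 ± 18.9 for *Hamp2*, 24.0 ± 18.2 for *Hmox1* and 7.87 ± 1.14 for *Tfrc*. *Trf* and *Ftl1* overlapped in that group, as did *Hamp* and *Fth1*, and *Slc40a1*, *Hamp2* and *Hmox1*, and 1 *Hamp2* value lay below all 3 of *Tfrc*. In KO vehicle the order was the same apart from *Fth1*, at 1684 ± 338, above *Hamp*, at 910 ± 146. With APAP *Ftl1* led, at 8429 ± 2276 in WT livers and 9856 ± 411 under the KO label. *Hmox1* ranked 5 of 10 there, at 666 ± 93.2 and 841 ± 184 TPM, above *Alas1* at 411 ± 225 and 487 ± 189, with which its livers overlapped. In WT APAP 1, *Ftl1* had 1.04 TPM per CPM, against 1.38 to 2.04 in the other livers, so levels in TPM and CPM rank that liver differently.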

How the data were processed

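Poly-A RNA of 12 mouse livers, 3 separate livers in each of 4 groups by the labels, was sequenced in pairs of reads from stranded TruSeq mRNA libraries. Per the submitters' processing notes, FastQC 0.11.7, Trimmomatic 0.38, HISAT2 2.1.0, Bowtie2 2.3.4.1 and StringTie 2.1.3b were used with the mm10/GRCm38 genome, and their settings are not given in the sources used here. The authors deposited 1 table with raw read counts, FPKM and TPM of each gene in each liver. The deposited counts were the basis of each test, the deposited TPM of levels compared between genes and of 1 alternative, and the FPKM that the authors computed were not used further. Each value column was matched to 1 liver by its label, and 19370 of 45777 genes had 0 counts in every library. Totals were 49737950 to 69566079 counts per library, and the rarest member, *Hamp2*, had 39 to 603 counts a liver.

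Counts were tested with edgeR 4.0.16 (R 4.3.3; filterByExpr, TMM scaling, quasi-likelihood test, Benjamini-Hochberg adjustment over all genes tested, threshold 0.05). APAP was compared with vehicle in WT livers, in livers labelled KO and over all 12 livers with the genotype label as a term. The labels were compared within each treatment, and their interaction with treatment was tested over all 12 livers. The same code was tested on simulated counts with known changes. Groups came from the labels. All 10 members are named, and from the wider list up to 3 genes per role group and comparison with the smallest p, with any gene whose call is counted. The 10 members, the wider list, the marker lists and the alternatives were chosen with earlier results of these data known. Alternatives were DESeq2 1.42.0 (size factors and Wald test), no filter, 1 fit over all 12 livers, a replicate block, limma 3.58.1 on quantile-normalized log2(TPM + 1), added counts of copies, and leaving out each liver. Leaving out WT vehicle 2 and WT APAP 1 together was chosen after seeing the data. The replicate numbers did not pair the samples. Sequences were read from RefSeq (GRCm38.p6) promoters and from GENCODE vM21 transcripts, and gene positions are RefSeq's on the same build. Library preparation from poly-A RNA leaves out transcripts without a tail, and near-identical copies can share reads. Some genes of the lists are counted in their totals and not reported here by name.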

Additional observations from a re-analysis of the deposited data

How the results depend on the processing

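*Hmox1* kept its direction under every alternative run in the 3 APAP comparisons, and its call under the KO label and over all 12 livers held in each of them. *Fth1* kept its call in those 2 comparisons under every alternative run as well. With 3 livers a group, WT results turned on single livers. In WT livers 1 member was called, against 3 by the DESeq2 Wald test, 3 with all 12 livers in 1 fit, and 2 without WT vehicle 2 and WT APAP 1. The calls over all genes there went from 322 to 1413, 1523 and 631. All 12 livers in 1 fit gave 2249 calls under the KO label, against 2034 genes higher and 1504 lower in the fit of its own 6 livers. Between the labels, 5 calls with APAP became 29 by the DESeq2 Wald test and 0 in the fit of all 12 livers, 4 with vehicle became 137 and 0, and 0 in the interaction became 9 by the DESeq2 Wald test. The cause of these differences was not tested.

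The replicate numbers did not pair the livers: the correlation of same-numbered livers ran from -0.26 to 0.05 over 12 pairs and was over 0.1 in 0 of them. With the replicate block, 0 members and 56 genes were called in WT livers, 1 gene between the labels with APAP and 0 with vehicle. *Hmox1* then had an adjusted p of 0.0656 in WT livers, *Hamp* one of 0.0573 under the KO label and *Hamp2* a log2 fold change of 0.11 there. The block also took the adjusted p of *Lcn2* to 0.0792 and of *Pcbp1* to 0.0898 under the KO label, and over all livers that of *Urod* to 0.0639, of *Cpox* to 0.0567 and of *Lrp1* to 0.0503.

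Reversals were confined to members without a call. By limma on TPM, *Alas1* was -0.018 in WT livers, and *Hamp2*, *Alas1* and *Trf* were 0.10, 0.059 and 0.059 under the KO label. Between the labels with APAP, limma gave *Hmox1* -0.17, *Alas1* -0.16, *Fth1* -0.36, *Ftl1* -0.49 and *Trf* -0.56, and with vehicle it gave *Ftl1* -0.069. Without both livers that stood apart, *Blvrb* was -0.065 and *Tfrc* -0.31 in WT livers, and the *Hamp* interaction was 1.03.

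Leaving out 1 liver at a time gave these ranges of log2 fold changes and counts. In WT livers 0 to 2 members and 41 to 442 genes were called, with *Blvrb* at -0.020 to 0.10, *Alas1* at -0.25 to 0.30 and *Tfrc* at -0.26 to 1.06. Under the KO label 2 to 4 members and 1995 to 3368 genes were called, with *Alas1* at -0.42 to 0.36, *Slc40a1* at -0.26 to 0.18 and *Hamp2* at -0.80 to 0.60. Over all livers *Alas1* ran from -0.17 to 0.22. Between the labels with APAP, 1 to 7 genes were called, with *Hmox1* at -0.32 to 0.41, *Alas1* at -0.30 to 0.41, *Fth1* at -0.0088 to 0.21, *Tfrc* at -0.33 to 1.01, *Trf* at -0.050 to 0.20, *Slc40a1* at -0.45 to 0.20 and *Hamp2* at -0.091 to 0.58. With vehicle, 0 to 16 genes were called, with *Alas1* at -0.48 to 0.29, *Trf* at -0.16 to 0.071, *Hamp* at -0.35 to 2.099 and *Hamp2* at -0.070 to 1.60. In the interaction 0 to 2 genes were called, with *Hmox1* at -1.31 to 0.10, *Ftl1* at -0.12 to 0.070 and *Hamp* at -1.23 to 1.203.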

Other observations

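The genes whose levels followed single members most closely from liver to liver were sought over the 12 livers, by the correlation of deviations from the group means on the log2 CPM scale. The livers share their libraries and depths, and the values are a description. For *Hmox1* they were *Fosl2* (r = 0.97), *Ripor3* (0.96) and *Cers2* (0.95). For *Hamp* they were *Slc30a9* (0.96), *Cbs* (0.94) and *Ypel2* (0.93), and for *Slc40a1* *P2ry4* (0.97), *Gm32912* (0.97) and *Myo9a* (0.96). For *Alas1*, whose spread within groups was wide, they were *Gm42048* (0.95), *Gm46027* (0.94) and *LOC115487386* (0.93). These were read at low levels, with means of -1.20, -2.22 and -2.98 on the log2 CPM scale, and *Gm32912* had a mean of -0.79. The genes named had the highest correlations of all non-member genes that passed the filter, so high values were selected for.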
